A study of Mus musculus with 8 samples.

Results

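Sperm cross the coats of the egg with the help of the acrosome, and 10 mouse genes whose proteins sit in or on this organelle or bind the egg were followed through 8 RNA libraries of spermatocytes. The 10 genes were the rows of the deposited FPKM table, which lists 54532 genes, that carry the names Acr, Acrbp, Acrv1, Spaca1, Spaca3, Spaca4, Spaca7, Zpbp, Zpbp2 and Izumo1. All 10 were found, and all 10 passed the filter on low values, an FPKM above 1 in at least 1 library, which 21175 genes passed. FPKM, which scales fragments to gene length and library size, allows levels to be compared between genes of different length.

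The study asked what the loss of mitofusin 2 (MFN2), a protein of the outer mitochondrial membrane that joins mitochondria, does to male germ cells. The mice were C57BL/6J. The MFN2 WT controls carried Mfn2 loxp/loxp and no Cre, although the study's methods also admit heterozygous floxed animals as controls, and the MFN2 cKO mice were Mfn2 loxp/loxp with Stra8-Cre, which acts in male germ cells and removes exon 6 of Mfn2. From each genotype, pachytene spermatocytes (P) and a fraction labelled L/Z, taken here as leptotene and zygotene spermatocytes, were collected by sedimentation through a gradient of serum albumin at postnatal day (PD) 24 and PD 52. This gave 8 groups with 1 library in each, so that no group had a replicate and the number of animals behind a library is not given in the sources used here.

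The acrosome is a vesicle that grows from the Golgi apparatus over the nucleus of the round spermatid, after meiosis. Several of its genes are nevertheless transcribed from the pachytene stage on, and others are known as genes of the round spermatid. In a juvenile testis the leading germ cells pass through meiosis for the first time and the first spermatids follow them, whereas an adult testis holds all stages side by side. Among the 10 proteins, ZPBP and ZPBP2 bind the zona pellucida, the coat of the egg, and help to build the acrosome. Acrosin, from Acr, is its trypsin-like protease, and ACRBP holds the proenzyme of acrosin. ACRV1, SPACA1, SPACA3, SPACA4 and SPACA7 are proteins of the acrosome's membranes or matrix, and IZUMO1 binds its receptor on the egg and is required for fusion.

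The sequences just upstream of the start sites of Izumo1, Zpbp and Zpbp2 are shown because they bind the egg or its coat, differ in how widely their levels ranged over the libraries and have windows without an annotated exon of any gene. They come from RefSeq, build GRCm38.p6, and each is the 250 bases before the annotated start, read on the strand of the gene. The window of Izumo1 lies at chr7:45621561-45621810 on the forward strand, that of Zpbp at chr11:11462420-11462669 on the reverse strand and that of Zpbp2 at chr11:98550847-98551096 on the forward strand. Capitals mark the letters TGACG or TGACGTCA, the core and the full form of the cyclic AMP response element, which the testis factor CREM is known to bind.
Izumo1: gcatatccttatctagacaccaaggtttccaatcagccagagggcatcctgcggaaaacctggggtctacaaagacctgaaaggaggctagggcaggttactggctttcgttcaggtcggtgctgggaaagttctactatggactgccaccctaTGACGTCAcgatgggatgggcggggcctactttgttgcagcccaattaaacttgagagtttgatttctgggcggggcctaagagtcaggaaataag
Zpbp: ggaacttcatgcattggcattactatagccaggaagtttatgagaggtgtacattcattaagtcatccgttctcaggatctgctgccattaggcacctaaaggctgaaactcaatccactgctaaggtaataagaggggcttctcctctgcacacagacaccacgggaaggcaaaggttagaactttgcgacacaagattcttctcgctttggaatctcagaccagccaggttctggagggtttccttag
Zpbp2: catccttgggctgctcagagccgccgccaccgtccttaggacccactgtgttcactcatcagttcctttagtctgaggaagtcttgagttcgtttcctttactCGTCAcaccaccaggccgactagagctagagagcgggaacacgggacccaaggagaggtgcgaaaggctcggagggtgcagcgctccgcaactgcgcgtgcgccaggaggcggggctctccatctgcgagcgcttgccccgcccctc
TGACG was searched on both strands, and in the palindromic TGACGTCA it is met on each strand. Of 9 members with a RefSeq window (Acr is named only), 5 held TGACG, namely Acrbp, Izumo1, Spaca1, Spaca3 and Zpbp2, against 17.8% of 32851 windows of all genes. TGACGTCA stood in the window of Izumo1, with its first base 96 bases upstream of the start, against 1.55% of all windows. GTTGCC, the letters of one arm of the box bound by RFX factors, stood in the window of Acrbp, against 10.4% of all windows, and TAACTG, a form of the MYB site, in the window of no member against 8.53%. These matches describe letters, not binding.

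In GRCm38 the genes lie on 7 chromosomes. Zpbp (11:11279626-11462408, reverse strand), Zpbp2 (11:98551097-98558665, forward) and Spaca3 (11:80858365-80867814, forward) share chromosome 11 at a distance, and Izumo1 (7:45621811-45628823, forward) and Spaca4 (7:45725107-45725813, reverse) are separated by 96283 bases of chromosome 7. Acr (15:89568326-89574585), Acrbp (6:125049689-125063267), Acrv1 (9:36693220-36698843) and Spaca7 (8:12573029-12600744) are on the forward strand and Spaca1 (4:34024874-34050191) is on the reverse strand. Some of their reads can belong to other genes. Of the 50-base windows in the transcripts of Acrbp, 29.8% also occur in the overlapping genes Gm44597 or 4930557K07Rik. The highest levels of these were 0.772 and 5.84 FPKM. Of those of Izumo1, 18.7% also occur in Rasip1, whose highest level was 2.93 FPKM. For Spaca7 8.04% occur in D630011A20Rik, at up to 2.81 FPKM. For Zpbp 4.17% occur in Spata48, which ran from 2.59 to 45.9 FPKM and was lowest and highest in the same libraries as Zpbp. Spaca4, a gene of 1 exon, lies wholly inside Fam83e on the opposite strand, and although their transcripts share no window, reads of the 2 genes cannot be told apart within Spaca4 because the strand used in counting is not given. Fam83e was listed at 5.35, 2.08, 12.3 and 7.76 FPKM in P WT, P cKO, L/Z WT and L/Z cKO at PD 24, so it was low and high in the same libraries as Spaca4.

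The libraries held 14340665 to 20379950 reads on genes. Mfn2 itself was reduced in all 4 pairs, at 34.3 to 50.1 FPKM in MFN2 cKO against 62.2 to 97.5 FPKM in MFN2 WT, counted over the whole gene and not over exon 6 alone. The labels were only in part borne out by markers. Of 9 pachytene markers limma called 3 higher and 1 lower in P than in L/Z, where 12.4% and 16.0% of all genes were. Piwil1, 1 of those higher, was at 168 to 278 FPKM in P and 16.0 to 40.5 FPKM in L/Z. Pgk2, the 1 lower, was at 135 to 277 FPKM in P and 240 to 651 FPKM in L/Z. Of 10 markers of leptotene and zygotene cells limma called 4 higher and 2 lower in P. Hormad1 and Sycp3 were higher in the P library of all 4 pairs. All 12 markers of spermatids, cells that follow meiosis, were lower in the P than in the L/Z library of each pair, and none of them was at 0 in any library. The L/Z libraries are therefore named here by their label.

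**Figure D1:**
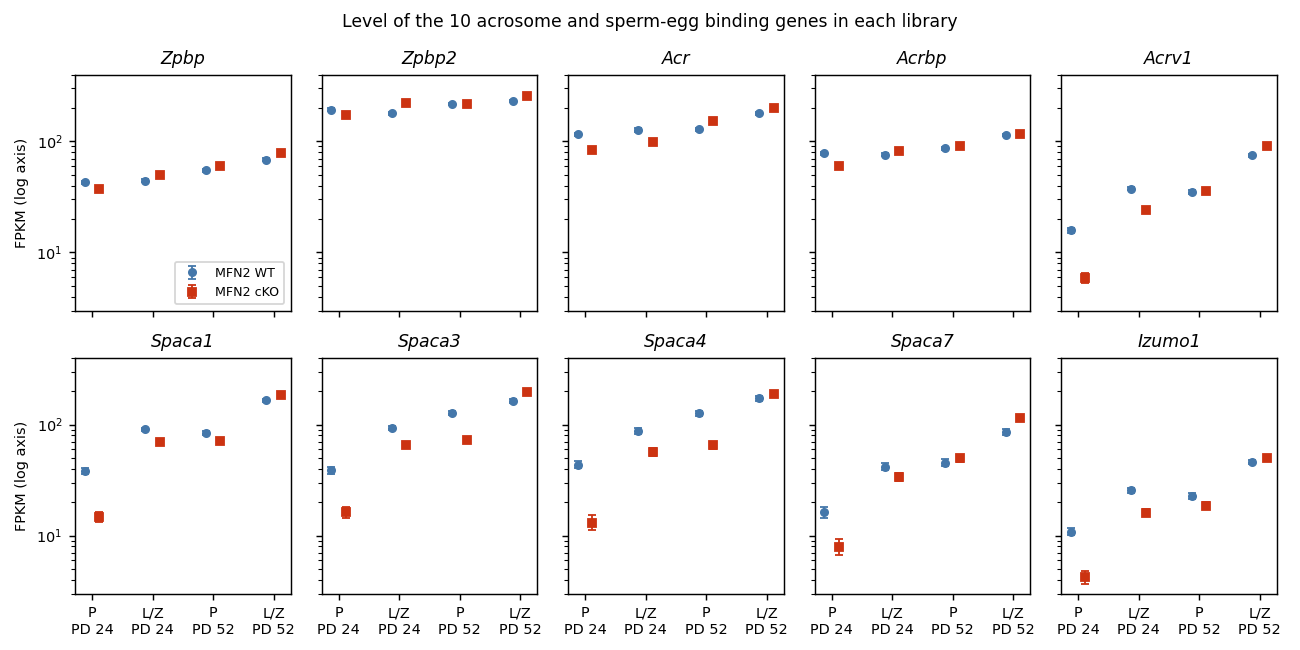
Level of each member in the 8 libraries, in FPKM on a log axis, with blue circles for MFN2 WT, red squares for MFN2 cKO and bars for the 95% counting interval. Zpbp, Zpbp2, Acr and Acrbp stay within 2.38-fold, while the other 6 genes span 11.9-fold to 15.3-fold. All 10 genes are lowest in the P MFN2 cKO library of PD 24.

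Each of the 10 genes was at its lowest in the P MFN2 cKO library of PD 24 and at its highest in the L/Z MFN2 cKO library of PD 52, a pattern met in 15.1% of the 21175 genes. The width of the span divided the members. In Zpbp2, Acrbp, Zpbp and Acr the highest level was 1.50, 1.96, 2.10 and 2.38 times the lowest, whereas in Izumo1, Spaca3, Spaca1, Spaca4, Spaca7 and Acrv1 it was 11.9, 12.1, 12.5, 14.4, 14.4 and 15.3 times the lowest. These sets, called here the narrow and the wide members, were formed after the values were seen, so the contrast between them is a description and was not tested.

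Zpbp2 and Zpbp encode the zona pellucida-binding proteins. Zpbp2 was the most abundant member in every library, at 193 FPKM in P WT, 171 in P cKO, 179 in L/Z WT and 223 in L/Z cKO at PD 24, and at 216, 216, 232 and 257 FPKM in the same order at PD 52. Zpbp was at 43.0, 37.3, 44.2 and 49.6 FPKM at PD 24 and at 55.1, 59.7, 68.7 and 78.5 FPKM at PD 52. Zpbp thus lay higher in every PD 52 library than in any PD 24 library. For Zpbp2 the 2 ages overlapped, since the L/Z cKO library of PD 24 exceeded both P libraries of PD 52. The step from that library to the P WT library of PD 52 was within counting error.

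Acr and Acrbp encode the protease and the protein that holds its proenzyme. Acr was at 116, 83.8, 127 and 99.5 FPKM in P WT, P cKO, L/Z WT and L/Z cKO at PD 24 and at 128, 151, 179 and 199 FPKM at PD 52. Acrbp was at 78.3, 60.0, 75.9 and 81.8 FPKM at PD 24 and at 86.4, 91.0, 114 and 117 FPKM at PD 52. For both genes all PD 52 libraries were above all PD 24 libraries, though for Acr the gap between the L/Z WT library of PD 24 and the P WT library of PD 52 was within counting error.

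Acrv1, a long-known marker of the round spermatid's acrosome, was at 15.8, 5.90, 37.6 and 24.1 FPKM at PD 24 and at 34.9, 35.8, 74.7 and 90.4 FPKM at PD 52, again in the order P WT, P cKO, L/Z WT and L/Z cKO. Spaca1, whose protein is needed for the acrosome's shape, was at 38.3, 14.7, 90.5 and 69.6 FPKM at PD 24 and at 83.4, 70.5, 166 and 183 FPKM at PD 52. In both genes the L/Z libraries were higher than the P libraries of their age, and the ages overlapped. In Acrv1 the L/Z WT library of PD 24, but not the L/Z cKO library, was within counting error of the P cKO library of PD 52, and in Spaca1 the L/Z WT library of PD 24 was above both P libraries of PD 52. Spaca7 was at 16.2, 7.91, 41.6 and 33.9 FPKM at PD 24 and at 45.2, 49.7, 85.6 and 114 FPKM at PD 52, so that it alone among the wide members was higher in every PD 52 library than in any PD 24 library, although the step from the L/Z WT library of PD 24 to the P WT library of PD 52 was within counting error.

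Spaca3, which encodes a lysozyme-like protein, and Spaca4, whose product is anchored to the membrane by a lipid, had like profiles. Spaca3 was at 38.8, 16.2, 93.3 and 65.1 FPKM at PD 24 and at 126, 72.3, 164 and 196 FPKM at PD 52. Spaca4 was at 43.5, 13.1, 87.2 and 56.6 FPKM at PD 24 and at 126, 65.0, 172 and 188 FPKM at PD 52. They differ from the other wide members in the P libraries of PD 52. There the level in MFN2 cKO was 57.3% of MFN2 WT for Spaca3 and 51.4% for Spaca4. The other wide members ranged from 81.8% (Izumo1) and 84.5% (Spaca1) to 110% (Spaca7). Izumo1, the fusion gene, had the lowest level of all members in every library, at 10.9, 4.22, 25.5 and 16.1 FPKM at PD 24 and at 22.8, 18.7, 46.1 and 50.2 FPKM at PD 52.

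The order of the libraries within a gene rested on 1 library each, so only counting error could be set against it. Intervals and limits from reads cover counting error only, since the reads carry no molecular identifiers. The members had 144 to 6666 reads in a library. When the 8 libraries were ranked by level, all 7 steps between neighbours exceeded counting error in Spaca3, Spaca4 and Izumo1, and 1 or 2 steps of 7 did not in each of the other members. Among the latter, P WT and P cKO of PD 52 did not differ beyond counting error in Acrv1, Spaca7 or Zpbp2.

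The comparison of MFN2 cKO with MFN2 WT was made in each of the 4 pairs. In P spermatocytes of PD 24 every member was lower in MFN2 cKO, with a median difference of -1.06 in log2(FPKM + 1) against -0.10 over all 16749 genes compared. Spaca4, Spaca1, Acrv1, Spaca3 and Izumo1 were at least 2-fold lower on this scale, 5 of 10 members, where 6.29% of all genes were. Spaca4 was at 30.0% of its MFN2 WT level, a log2 difference of -1.66 with a 95% counting interval of -1.90 to -1.43. Izumo1, the member nearest the limit from within, differed by -1.18 (-1.37 to -1.0), and Spaca7, the nearest from without, by -0.95 (-1.21 to -0.68). The narrow members differed by -0.46 (Acr) to -0.17 (Zpbp2). With 1 library on each side no p-value can be given for a pair.

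**Figure D2:**
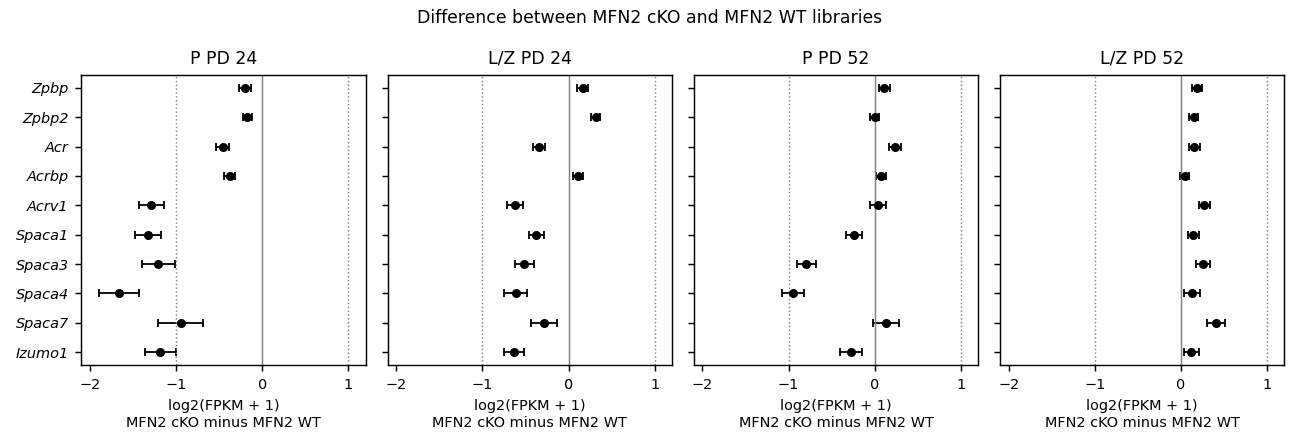
Difference of each member between MFN2 cKO and MFN2 WT in the 4 pairs, in log2(FPKM + 1), with bars for the 95% counting interval, a solid line at 0 and dotted lines at a 2-fold difference. In P PD 24 all 10 genes lie below 0 and 5 lie beyond the 2-fold line, and in L/Z PD 52 all 10 lie between 0.04 and 0.41.

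In L/Z spermatocytes of PD 24 the wide members were again lower in MFN2 cKO, by -0.29 (Spaca7) to -0.63 (Izumo1) in log2(FPKM + 1). Acr was also lower, at -0.34 (-0.41 to -0.27), whereas Acrbp, Zpbp and Zpbp2 were higher, at 0.11, 0.16 and 0.32. No member reached a 2-fold difference in this pair, where 10.5% of all genes did in either direction, and the members' median was -0.36 against 0.08 over all genes.

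At PD 52 the P libraries were split. Spaca4 and Spaca3 were lower in MFN2 cKO, at -0.95 (-1.08 to -0.82) and -0.80 (-0.91 to -0.69), while Acr was higher at 0.24 (0.17 to 0.30), and the members' median was 0.02 against -0.05 over all genes. The sign of Zpbp2, at -0.003 in log2(FPKM + 1), turned with a further scaling of the libraries. In the L/Z libraries of PD 52 all 10 members were higher in MFN2 cKO, from 0.04 (Acrbp) to 0.41 (Spaca7). The interval of Acrbp, -0.01 to 0.09, included 0. The members' median was 0.15 there against 0.02 over all genes. No member reached a 2-fold difference in either pair, where 5.78% of all genes were lower and 5.21% higher by this much in P, and 7.95% in either direction in L/Z.

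A limma fit to log2(FPKM + 1) with the pair as a block, adjusted by Benjamini and Hochberg's method over 21175 genes, called no member for an effect of genotype shared by the 4 pairs. At an adjusted p under 0.05 it called 0.137% of all genes. Spaca4 had the largest difference, at -0.77 ± 0.29 (SE), lower in 3 of 4 pairs, with an adjusted p of 0.652 in limma, and it was the 1 member with an unadjusted p under 0.05. limma-voom on the recovered reads also called no member.

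With the genotype effect set separately for each age, no member was called at PD 24, where 1.46% of all genes were. The 6 wide members had unadjusted p-values under 0.05 there, with limma differences from -1.14 ± 0.37 (SE) for Spaca4 to -0.62 ± 0.25 (SE) for Spaca7. The smallest adjusted p in limma was 0.155, for Acrv1 at -0.95 ± 0.24 (SE), which was lower in both pairs. limma-voom on the reads called Acrv1 and Izumo1 lower, with adjusted p-values of 0.0317 and 0.0459, where it called 3.98% of all genes lower. At PD 52 limma called no member, where 0.0236% of all genes were called, and no member had an unadjusted p under 0.05, nor did voom call any.

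The difference between the genotype effects of the 2 ages was tested itself. It was above 0 for all 10 members, from 0.0003 for Zpbp2 to 1.11 ± 0.34 (SE) for Acrv1 in log2(FPKM + 1). In limma no member was called, where 0.0142% of all genes were, and in voom none was. Acrv1, Spaca7 and Izumo1 had unadjusted p-values under 0.05, with adjusted p-values of 0.283, 0.379 and 0.390 in limma. Acr was lower in MFN2 cKO in both pairs of PD 24 and higher in both pairs of PD 52, beyond counting error in each, with an adjusted p of 0.492 for the difference in limma. Acrv1 and Spaca7 were lower in both pairs of PD 24 and higher in L/Z PD 52, but in P PD 52 their intervals included 0.

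By their median limma difference the members stood at 1.36 in PD 52 minus PD 24, -1.25 in P minus L/Z and -0.29 in MFN2 cKO minus MFN2 WT, in log2(FPKM + 1), against medians of 0.005, -0.04 and -0.04 over all genes. All 10 genes were higher at PD 52 than at PD 24 in all 4 pairs of stage and genotype, as were 24.8% of all genes. In Acr, Acrbp, Zpbp and Spaca7, 4 of 10 members, all 4 PD 52 libraries were above all 4 PD 24 libraries, as in 6.96% of all genes. The wide members were 1.01 to 1.68 higher in P WT, 1.91 to 2.51 in P cKO, 0.81 to 1.03 in L/Z WT and 1.39 to 1.86 in L/Z cKO, in log2(FPKM + 1). The narrow members were 0.14 to 0.35, 0.33 to 0.84, 0.37 to 0.63 and 0.20 to 1.00 higher in the same order, the last value being that of Acr.

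In limma, with stage and genotype as a block, 7 of 10 members rose with age at an adjusted p under 0.05, where 11.9% of all genes did. They were the 6 wide members, from 1.33 ± 0.21 (SE, Izumo1) to 1.67 ± 0.25 (SE, Spaca7) in log2(FPKM + 1), with adjusted p-values from 0.0145 to 0.0177 in limma, and Zpbp at 0.57 ± 0.13 (SE), with an adjusted p of 0.0326. Acr at 0.62 ± 0.17 (SE), Acrbp at 0.46 ± 0.13 (SE) and Zpbp2 at 0.27 ± 0.11 (SE) did not pass, with adjusted p-values of 0.0530, 0.0640 and 0.125 in limma. The calls rested on each of 3 pairs: without P cKO, without L/Z WT or without L/Z cKO no member and no other gene was called, although the differences stayed above 0, and without P WT 9 members were. Without the FPKM filter 3 members were called, and without a block none was.

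**Figure D3:**
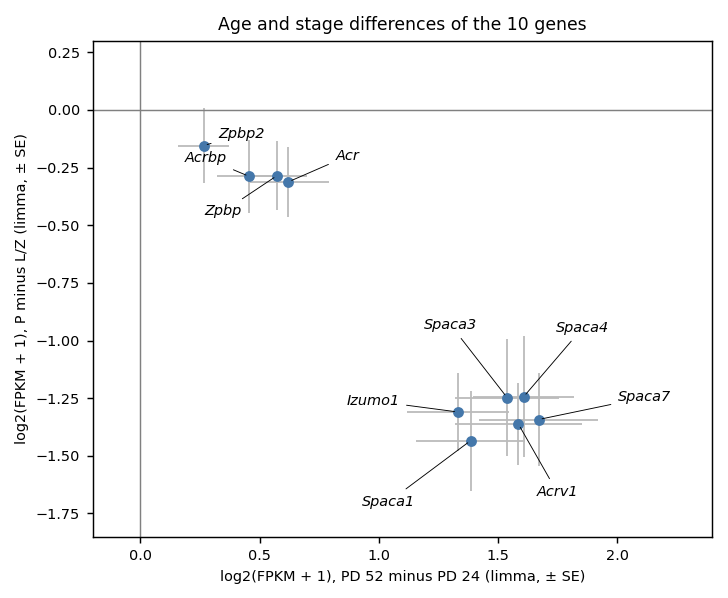
Age difference (PD 52 minus PD 24) on the x axis and stage difference (P minus L/Z) on the y axis for each member, both in log2(FPKM + 1) from limma, with bars of 1 SE. The 6 wide members lie between 1.33 and 1.67 in age and between -1.24 and -1.43 in stage, and the 4 narrow members between 0.27 and 0.62 and between -0.15 and -0.31.

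By stage, the members were higher in the libraries labelled L/Z. In 8 of 10 members the P library was the lower in all 4 pairs of age and genotype, as in 26.8% of all genes; the exceptions were Acrbp and Zpbp2, which in WT at PD 24 were 0.04 and 0.11 higher in P, in log2(FPKM + 1). In no member were all 4 P libraries below all 4 L/Z libraries, as they were in 5.63% of all genes. limma, with age and genotype as a block, called the 6 wide members lower in P, where 16.0% of all genes were. Spaca1 had the largest difference, at -1.43 ± 0.22 (SE) with an adjusted p of 0.00509 in limma, and Izumo1 the smallest adjusted p, 0.00379, at -1.31 ± 0.17 (SE). The narrow members did not pass, at -0.31 (Acr) to -0.15 (Zpbp2) and adjusted p-values of 0.163 to 0.491 in limma. These calls were lost without the pair WT PD 24 and without the pair cKO PD 52, where no gene was called, and without a block. Without the FPKM filter 4 members were called. Genotype, age and stage comparisons all use the same 8 libraries.

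The profile of every member over the 8 libraries was compared with that of the others by the root mean square (RMS) difference of log2(FPKM + 1) after centring each gene. Acrbp and Zpbp were the closest members, at 0.08, followed by Spaca1 and Izumo1 at 0.12 and Spaca3 and Spaca4 at 0.14. Spaca4 and Zpbp2 were the least alike, at 1.01. Izumo1 and Spaca4, neighbours on chromosome 7, were not each other's closest. The 7 genes between them with FPKM above 1 differed between MFN2 cKO and MFN2 WT in P PD 24 by -0.70 to 0.34 in log2(FPKM + 1), none of them 2-fold. Among 14049 other protein-coding genes, Phyhipl, Fam187a, Ttll9, Hist1h3a and Il11 had profiles nearest the members' mean profile, at an RMS difference of 0.10 to 0.11. Of the members themselves, Izumo1 was nearest that mean at 0.26, with 294 other protein-coding genes closer, and Zpbp2 the farthest at 0.61, with 2934 closer.

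Related genes were described in 4 lists, to be read against the shares of all genes that limma called, 11.9% higher with age, 16.0% lower and 12.4% higher in P than in L/Z, and 1.24% lower in MFN2 cKO at PD 24. Of 13 genes of acrosome biogenesis, 3 rose with age and 4 were lower and 1 higher in P than in L/Z in limma. In P PD 24 all 13 were lower in MFN2 cKO, 4 of them at least 2-fold, where 6.29% of all genes were. In L/Z PD 24 3 were at least 2-fold lower, where 7.03% of all genes were. Ccin, which encodes the head protein calicin, was the 1 gene of this list that limma called lower in MFN2 cKO at PD 24. It was at 26.2 and 2.63 FPKM in P WT and P cKO and at 52.7 and 4.01 FPKM in L/Z WT and L/Z cKO of PD 24, but at 27.6 and 28.4 FPKM in the P libraries of PD 52. Actl7a, an actin-like protein of the acrosome's cytoskeleton, was at 51.3 and 14.4 FPKM in P WT and P cKO of PD 24, without a genotype call in limma. Spata16, a Golgi protein needed for the acrosome, and Tmf1 had the largest mean rises over the pairs, only 0.16 and 0.16 in log2(FPKM + 1).

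Of 15 further acrosomal proteins, 10 rose with age and 9 were lower and 1 higher in P than in L/Z in limma. In P PD 24, 7 of the 14 compared were at least 2-fold lower in MFN2 cKO, where 6.29% of all genes were. The median of the 14, -0.88 in log2(FPKM + 1), was close to that of the members. Iqcf1 had the largest mean fall over the pairs and was the 1 gene called lower at PD 24, at 16.5 and 1.09 FPKM in P WT and P cKO and 34.0 and 4.12 FPKM in L/Z WT and L/Z cKO. Lyzl6, a relative of Spaca3, was at 35.0 and 12.2 FPKM in P WT and P cKO of PD 24, while Crisp2 and Spesp1 were at 352 and 308 FPKM and at 82.1 and 71.9 FPKM there.

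Of 10 other genes required for or related to gamete fusion, 9 rose with age and 8 were lower in P than in L/Z in limma, and none was called for genotype at either age. Fimp, listed as 4930451I11Rik, was at 14.1 and 2.96 FPKM and Llcfc1 at 55.1 and 20.2 FPKM in P WT and P cKO of PD 24, both of which are needed for fusion as Izumo1 is. Izumo3 was at 12.8 and 7.39 FPKM, and Izumo4, the 1 gene of the list higher in P than in L/Z over the pairs, at 57.8 and 47.8 FPKM.

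Of 18 genes of ADAM3 maturation and zona binding, 7 rose with age, 8 were lower and 1 higher in P than in L/Z, and 4 were called lower in MFN2 cKO at PD 24. Prss37, a protease-like protein required for ADAM3 processing, was at 17.2 and 0.479 FPKM in P WT and P cKO and at 34.0 and 0.653 FPKM in L/Z WT and L/Z cKO of PD 24, and Calr3, the chaperone calsperin, at 7.68 and 1.07 FPKM and 20.5 and 2.99 FPKM. The other 2 called were Adam6a and Adam6b, named after their values were seen, between which the counting could split reads as near-identical copies. Cmtm2a and Tpst2 had the largest mean rises, 0.15 and 0.08 in log2(FPKM + 1). No gene of the 4 lists was called for genotype at PD 52.

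**Figure D4:**
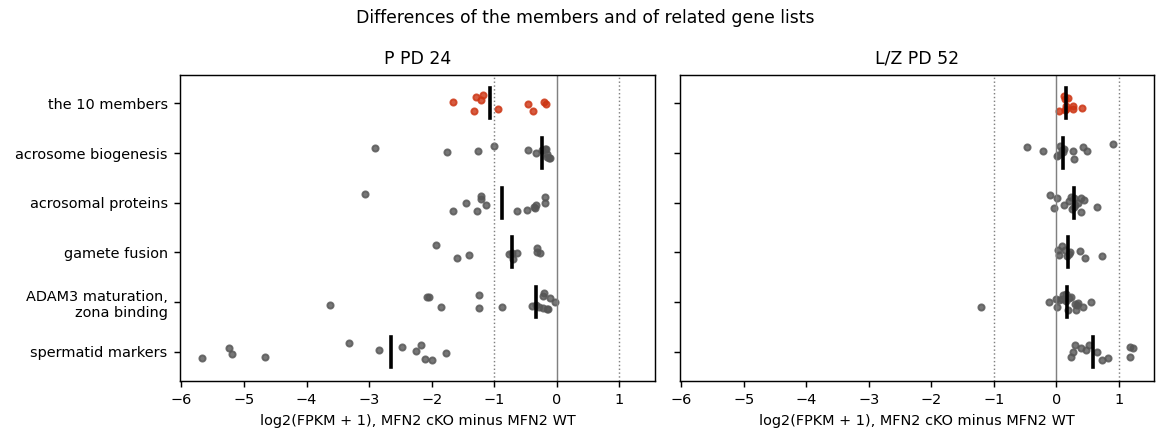
Difference between MFN2 cKO and MFN2 WT in log2(FPKM + 1), x axis, for the 10 members (red), for 4 lists of related genes and for spermatid markers (grey), in the P pair of PD 24 and the L/Z pair of PD 52, with a black bar at each median and dotted lines at 2-fold. In P PD 24 the medians run from -0.24 for acrosome biogenesis to -1.06 for the members and -2.66 for the spermatid markers, and in L/Z PD 52 all medians lie above 0.

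Markers of spermatids were lowest and highest in sum in the same libraries as the members. The summed level of the 12 markers was 1393 FPKM in P WT, 130 in P cKO, 2790 in L/Z WT and 463 in L/Z cKO at PD 24, and 5316, 2505, 12130 and 21616 FPKM at PD 52. The summed level of the 6 wide members was 163, 62.0, 376 and 265 FPKM at PD 24 and 439, 312, 708 and 822 FPKM at PD 52, and that of the 4 narrow members 430, 353, 426 and 454 FPKM and 486, 518, 593 and 652 FPKM. All 12 spermatid markers were at least 2-fold lower in MFN2 cKO in P PD 24, where 6.29% of all genes were. In L/Z PD 24, 11 were, against 7.03% of all genes, and in P PD 52, 5 were, against 5.78%. In L/Z PD 52, 3 were at least 2-fold higher, against 4.83% of all genes. limma called 11 of the 12 higher at PD 52, 11 lower in P than in L/Z and 8 lower in MFN2 cKO at PD 24. Tnp1, a defining marker that encodes a transition protein of elongating spermatids, was at 103 and 1.85 FPKM in P WT and P cKO of PD 24.

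**Figure D5:**
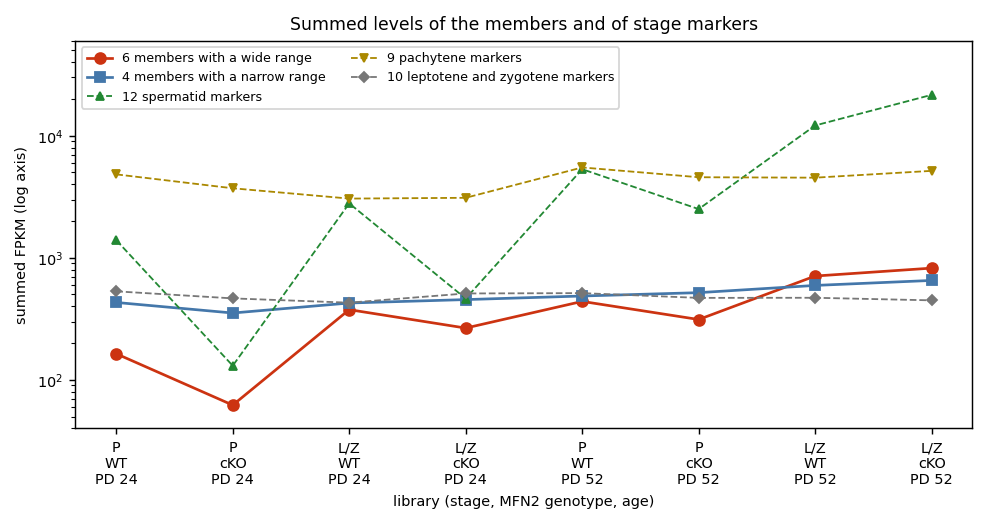
Summed FPKM, on a log axis, of the 6 wide members, the 4 narrow members and 3 lists of stage markers in the 8 libraries, with lines that only join the points of a set. The wide members run from 62.0 to 822 FPKM and the spermatid markers from 130 to 21616 FPKM, both lowest in P cKO PD 24 and highest in L/Z cKO PD 52, while the leptotene and zygotene markers sum to 429 to 531 FPKM, of which Syce1 alone gives 188 to 274 FPKM.

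The ratio of the summed wide members to the summed narrow members within a library was 0.380, 0.176, 0.882 and 0.584 at PD 24. At PD 52 it was 0.903, 0.603, 1.19 and 1.26, so that MFN2 cKO had the lower ratio in 3 of 4 pairs. The sets were formed by their span from P cKO of PD 24 to L/Z cKO of PD 52. The ratio therefore had to be lower in the former library than in the latter, and it is a description only. The median level of the 10 leptotene and zygotene markers ran from 37.0 FPKM in P WT of PD 24 to 7.91 FPKM in L/Z cKO of PD 52. Pachytene markers summed to 3053 to 5495 FPKM and were at 76.9% of MFN2 WT in P PD 24. In these mixed cell fractions, fewer cells of a type and less RNA per cell cannot be told apart. Markers of Leydig cells, which lie outside the tubules, were higher in MFN2 cKO in all 4 pairs, with sums of 27.5 to 255 FPKM in WT libraries at PD 52 and 19.7 to 36.4 FPKM at PD 24 against 99.0 to 641 FPKM and 139 to 206 FPKM in MFN2 cKO, and macrophage markers summed to 260.8 FPKM in L/Z cKO of PD 52 against 6.11 to 125 FPKM elsewhere. Markers of Sertoli cells, which support the germ cells, moved against the members. All 9 were called higher in P than in L/Z in limma, where 12.4% of all genes were. At PD 52 limma called 7 of 9 lower, where 1146 of 21175 genes were. Their sums ran from 17.0 FPKM in L/Z WT of PD 52 to 498 FPKM in P cKO of PD 24. limma called all 7 macrophage markers, and all 4 of 5 peritubular myoid markers that passed the filter, lower in P than in L/Z. Of 9 spermatogonial markers, which summed to 45.7 to 172 FPKM, 3 were called lower and 1 higher in P. The part of any of these cell types in the members' differences was not tested.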

How the data were processed

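RNA of spermatocytes from 8 groups of mice was sequenced, 1 library per group. Per the labels, 1 ug of total RNA entered the NEBNext Ultra RNA kit. The authors used Novomagic to normalize reads to FPKM and deposited these for 54532 genes, with gene lengths and coordinates and without a filter or a log scale. The submitters' processing notes name Bowtie 0.12.2, CASAVA 1.4 and the builds mm8 and mm9, but 98.3% of the deposited genes have the coordinates of GENCODE M21 on GRCm38, which is used here. FPKM multiplied by gene length fell within 0.01 of whole reads for 100% of values in each library once divided by a step of that library, and the steps show size factors of 0.882 to 1.23. Reads on genes were 14340665 to 20379950 per library. The authors state DESeq2, which needs counts, and it was not used here.

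Differences within a pair were taken on log2(FPKM + 1), which understates those of low genes, where FPKM exceeded 1 in either library, with a 95% exact binomial (Clopper-Pearson) counting interval. Differences of at least 1 were counted. Across libraries, limma 3.58.1 (trend) was fitted to log2(FPKM + 1) for 21175 genes above 1 FPKM in at least 1 library, with a block for the pair and Benjamini-Hochberg adjustment at 0.05. With 1 library per group, these p-values take the spread between pairs as error. Whether the P and L/Z libraries of a genotype and age share mice is not given, so the pairs may not be independent. The pairing of libraries by stage and age comes from the labels.

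All members were named, with Mfn2, the 2 largest mean rises and falls of each list over the 4 pairs and the 5 nearest profiles. The members and lists were chosen with earlier results of these data known. The settings also tried were no FPKM filter, a pseudocount of 0.1, a ratio of scaled reads, protein-coding genes only, limma-voom on recovered reads, no block, each pair left out, and a further median-of-ratios scaling. That scaling was set over 9822 protein-coding genes after the data were seen, because over all genes it did not move any library against another. The fits were tested on simulated data of 21175 genes, in which a change was the same in each pair. Of 50 genes raised by a log2 of 2 at PD 24, 47 were recovered, and of 50 lowered, 50. The members' limma differences at PD 24 reached only -1.14 and varied between pairs. These counts therefore do not give the recovery of changes like theirs. For the difference between the genotype effects of the 2 ages, 19 of 50 raised and 15 of 50 lowered by a log2 of 2 were recovered among 21175. Promoter windows were read from RefSeq on GRCm38.p6. R 4.3.3 was used.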

Additional observations from a re-analysis of the deposited data

How the results depend on the processing

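With 1 library per group, a difference within a pair has no replicate check, and counting error is its only measured error. The count of 5 members at least 2-fold lower in P PD 24 stayed at 5 or 6 under every alternative, and 0 members passed in the other pairs. The further scaling moved the members' median to 0.12 in P PD 52 and to 0.23 in L/Z PD 52. It turned 1 of 40 single differences, that of Zpbp2 in P PD 52, and moved libraries of a pair by at most 0.10 in log2. The fits for genotype called 0 members under every alternative but limma-voom, which called 2 at PD 24. For age, 7 members were called, 3 without the FPKM filter, 0 with no block, and 0 to 9 with a pair left out. For stage, 6 were called, 4 without the filter, 0 with no block, and 0 to 6 with a pair left out. In each of the leave-outs with 0 members called, no gene was called, and these have 1 residual degree of freedom fewer than the fit to all libraries. The sign of each called member's age and stage difference was the same in all of them.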
